A study of Danio rerio with 9 samples.

Results

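Collagens are the fibers, networks and anchors of the extracellular matrix, and their genes fall into classes by the structure that the protein builds. The collagen genes of zebrafish thyroid tumors were taken as all rows whose symbol begins with col, a number, the letter a and a further number. Only symbols in lower case were matched. This gave 53 of 27158 rows. 2 of them, col4a3bpa and col4a3bpb, carry a collagen symbol only in part and correspond to human COL4A3BP, a ceramide transfer protein, so 51 collagen genes were described. They were grouped by collagen type as fibrillar (9 genes), cartilage (13 genes), basement membrane (10 genes) and other (19 genes). RNA was sequenced from visible thyroid tumors of transgenic zebrafish, 4 libraries with CCDC6-RET and 5 libraries with BRAF(V600E), and the comparison asked how tumors driven by RET differ from those driven by BRAF. CCDC6-RET is a human fusion kinase of papillary thyroid cancer, and BRAF(V600E) is an activated form of the kinase BRAF. Each was driven by the zebrafish thyroglobulin (tg) promoter, which is active in thyroid follicular cells, and both groups are called adult in the sample names. The CCDC6-RET transgene was injected into fish with a tg:TdTomato reporter, and the BRAF(V600E) fish came from a model made earlier. Fish of the BRAF(V600E) model followed for tumor onset carried a mutation of p53, and whether the tumors sequenced here carried it is not stated in the labels. Age, sex and clutch are not given, nor whether each library came from its own fish, and the p-values therefore cover only the spread among the libraries. Line, age or dissection may differ with the oncogene and then cannot be told apart from it.

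Fibrillar collagens form the banded fibers of skin, tendon and bone, with type I as the main fiber and type V as a minor chain that starts fibers and limits their width. Cartilage collagens fill the same role there, with type II as the main fiber, type XI as its starter chain, type IX on its surface and type X in maturing cartilage. In zebrafish the type X genes are also expressed by bone-forming cells. Basement membrane collagens lie under epithelia, around thyroid follicles and around blood vessels. There type IV chains form a network, types XV and XVIII are proteoglycans, and type VII anchors the membrane of skin to the tissue below.

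CCDC6-RET libraries held 8662544 to 13596477 counts and BRAF(V600E) libraries 10656967 to 13354953, and no library held the values of another. The fold changes that follow are CCDC6-RET over BRAF(V600E) on the log2 scale with their standard error. Normalized read counts (CPM) are counts brought to a common library size after TMM scaling. A gene was called where the edgeR quasi-likelihood test gave a Benjamini-Hochberg adjusted p under 0.05 over all 18453 genes tested. Single values are given for CCDC6-RET libraries 2, 3, 5 and 6 and for BRAF(V600E) libraries 1, 2, 3, 6 and 7, in that order. The thyroid gene tg, which encodes thyroglobulin, had 30054, 12210, 18808 and 15981 CPM in CCDC6-RET libraries and 21275, 13375, 5261, 2444 and 7030 CPM in BRAF(V600E) libraries. It was therefore abundant in every library of both groups.

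Most collagen genes were lower in CCDC6-RET tumors, 2 genes of the basement membrane were higher, and a few chains of several classes did not differ beyond the spread of the libraries. Of 51 collagen genes 47 were tested, and 2 were called higher, 39 lower and 6 in neither direction. Over all tested genes 33.9% were called higher, 38.2% lower and 72.1% in either direction. The median log2 fold change of the 47 genes was -3.95, against -0.09 over all tested genes. In 39 of the 47 genes no CCDC6-RET library overlapped a BRAF(V600E) library, as in 64.8% of all tested genes. Only the BRAF(V600E) libraries carried 25 of the 47 past the filter on low counts, which favored lower values in CCDC6-RET libraries for these genes. The filter therefore also shaped the median of the 47 and the number of genes without overlap. The tested col19a1 row, 1 of the 25, was at 0.11, but this value rested on CCDC6-RET library 5 and was -2.56 without it. Of the 22 genes above the filter in both groups, 2 were called higher and 16 lower. The 4 genes not tested were col9a1b, col8a1a, col28a1a and 1 of the col19a1 rows, with 0 to 2 counts over all CCDC6-RET libraries and 2 to 34 over all BRAF(V600E) libraries. Scaling the libraries on ribosomal protein genes shifted the median of all tested genes to -0.67, and higher genes made up 24.7% of all calls in place of 47.0%. The collagen calls under that scaling were 2 higher and 40 lower. In such bulk tissue, fewer cells of a type and less RNA per cell cannot be told apart.

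**Figure D1:**
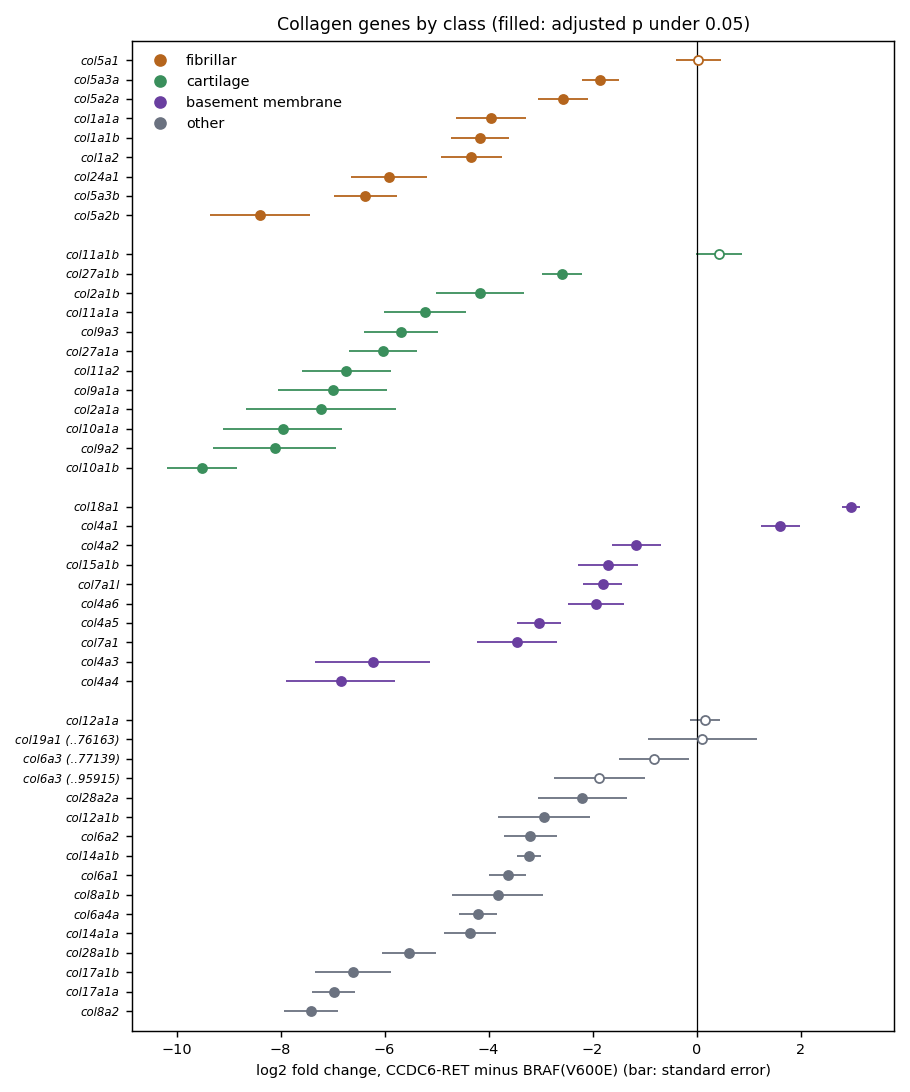
Log2 fold change (horizontal axis, CCDC6-RET over BRAF(V600E)) of the 47 tested collagen genes in 4 classes, with bars for the standard error and filled points for genes called. col18a1 and col4a1 lie to the right of 0, col5a1, col11a1b and col12a1a lie near 0 without a call, and the other called genes lie to the left.

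The type I chains, the bulk of fibrillar collagen, were all lower in CCDC6-RET tumors. col1a1a (ENSDARG00000012405, chromosome 3, 23090499 to 23108910, GRCz10, whole gene as for all positions here) had 62.8, 305, 27.3 and 119 CPM in CCDC6-RET libraries, against 2818, 1653, 1696, 1401 and 2370 CPM in BRAF(V600E) libraries. Every CCDC6-RET library was below every BRAF(V600E) library, and library 3 was the highest of its group. The log2 fold change was -3.95 ± 0.67 (edgeR adjusted p = 0.000487). The paralog col1a1b (chromosome 12, 3060966 to 3098750) had 69.3, 225, 32.2 and 140.0 CPM against 3016, 2081, 1815, 1513 and 2089 CPM. The partner chain col1a2 (chromosome 19, 41396101 to 41415860) had 54.1, 211, 28.2 and 91.4 CPM against 2734, 1702, 1591, 1442 and 2202 CPM. For each of these chains the groups were apart, and within the CCDC6-RET group library 3 was highest and library 5 lowest. Their log2 fold changes were -4.17 ± 0.56 for col1a1b and -4.33 ± 0.59 for col1a2 (edgeR adjusted p = 0.000112 and 0.000124). Without CCDC6-RET library 3 the values were -4.82 for col1a1a and -5.05 for col1a2, shifts of over 1.5 times in fold.

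Type V chains divided. col5a1, the defining alpha chain of type V (chromosome 21, 6634384 to 6803529), was chosen for description after its values were seen. It had 211, 187, 80.0 and 510.5 CPM in CCDC6-RET libraries and 317, 241, 200.4, 195 and 254 CPM in BRAF(V600E) libraries. The groups overlapped, and the log2 fold change was 0.03 ± 0.43 (edgeR adjusted p = 0.949), with values of -0.57 to 0.33 when single libraries were left out and -0.58 under ribosomal scaling. Its partner col5a2a (chromosome 9, 42851401 to 42894621) was lower, with 152, 60.5, 21.3 and 58.6 CPM against 539, 407, 443, 365 and 419 CPM. The paralog col5a2b (chromosome 6, 11203545 to 11260174) had 0, 1.67, 0.0812 and 0 CPM against 177, 68.5, 97.7, 88.2 and 170 CPM. Neither of these partner chains overlapped between groups, and 13 of the 14 CCDC6-RET counts of col5a2b lay in library 3. The log2 fold changes were -2.57 ± 0.48 for col5a2a and -8.40 ± 0.96 for col5a2b (edgeR adjusted p = 0.000887 and 4.33e-05). They were -3.19 without CCDC6-RET library 2 for col5a2a and -11.63 without library 3 for col5a2b. Another type V gene, col5a3b (chromosome 1, 58545607 to 58581062), had 2.11, 1.03, 0.162 and 0.286 CPM against 87.3, 98.7, 63.6, 79.7 and 54.0 CPM. The change was -6.37 ± 0.61 on the log2 scale (edgeR adjusted p = 1.55e-05), and -7.38 without CCDC6-RET library 2. Its paralog col5a3a was at -1.85 ± 0.35. The minor fibrillar gene col24a1 (chromosome 23, 45759494 to 45769796) had 0.302 CPM in CCDC6-RET library 2 and 0 in the others, against 6.37, 6.43, 7.74, 5.06 and 4.31 CPM, so its value rests on 4 CCDC6-RET counts. Of the 9 fibrillar genes 8 were called lower and none higher (median -4.17), beside 38.2% and 33.9% of all tested genes. Of the 6 above the filter on low counts in both groups 5 were lower. Only the BRAF(V600E) libraries carried col5a2b, col5a3b and col24a1 past the filter, which favored lower values.

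**Figure D2:**
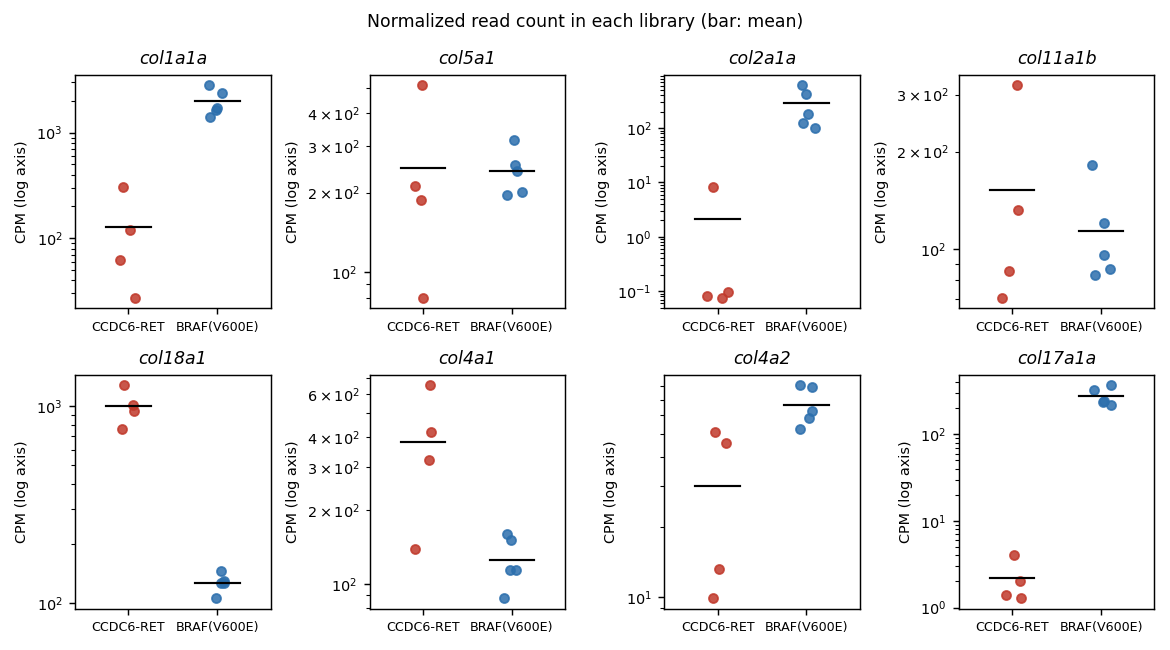
Normalized read count (CPM, logarithmic vertical axis with its own range in each panel) of 8 collagen genes in each CCDC6-RET library (left of each panel, 4 points) and BRAF(V600E) library (right, 5 points), with bars for the means. The groups separate for col1a1a, col2a1a, col18a1, col4a2 and col17a1a, and overlap for col5a1, col11a1b and col4a1.

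Most cartilage collagens had few counts in CCDC6-RET tumors, in contrast to the type XI chain col11a1b, whose levels overlapped between the groups. Of the 12 tested cartilage genes 10 passed the filter on low counts through the BRAF(V600E) libraries alone, and col2a1b and col11a1b passed in both groups. col2a1a (chromosome 8, 21163335 to 21187388), which encodes the main cartilage fiber and is also a notochord collagen, had 0.0755, 8.35, 0.0812 and 0.0952 CPM in CCDC6-RET libraries. BRAF(V600E) libraries had 616, 123, 101, 183 and 421 CPM of it. The groups did not overlap, and CCDC6-RET library 3 held 65 of the 68 counts of its group. The log2 fold change was -7.22 ± 1.44 (edgeR adjusted p = 0.00136) and -11.59 without library 3. Among the type X genes, col10a1a (chromosome 17, 15534144 to 15538929) had 0.755, 10.4, 0.244 and 0.381 CPM against 858, 505, 596, 576 and 898 CPM. col10a1b (chromosome 20, 494770 to 498370) had 0.453, 1.28, 0.162 and 0 CPM against 404, 359, 299.9, 254 and 286 CPM. No library of one group reached the other for either type X gene, with log2 fold changes of -7.96 ± 1.15 and -9.52 ± 0.67 (edgeR adjusted p = 0.000181 and 3.46e-06). Without CCDC6-RET library 3 they were -10.48 and -10.45. The col10a1b gene lies inside nt5dc1, which had 312 counts over CCDC6-RET and 1241 over BRAF(V600E) libraries, against 18 and 19506 for col10a1b. The type IX gene col9a2 (chromosome 19, 38834939 to 38880434) had 0, 1.28, 0 and 0 CPM against 160, 30.4, 21.4, 51.8 and 90.8 CPM. All 10 CCDC6-RET counts of col9a2 came from library 3, so the fitted log2 fold change of -8.12 ± 1.18 (edgeR adjusted p = 0.000187) had no count on the CCDC6-RET side without that library.

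The exception, col11a1b (chromosome 2, 15720603 to 15894604), had 132, 70.5, 321 and 85.4 CPM in CCDC6-RET libraries and 182, 95.6, 86.7, 82.9 and 120 CPM in BRAF(V600E) libraries. The groups overlapped, and CCDC6-RET library 5 was above all others. Its log2 fold change was 0.42 ± 0.44 (edgeR adjusted p = 0.405), and the value was -0.23 without library 5 and -0.11 under ribosomal scaling. Its paralog col11a1a had 1.43, 8.73, 0.731 and 4.76 CPM against 279, 91.7, 66.5, 106 and 169 CPM, which on the log2 scale was a change of -5.23 ± 0.79 with no overlap, and -5.96 without CCDC6-RET library 3. The col11a1a gene overlaps CR933730.1, which had 169 counts over CCDC6-RET and 40 over BRAF(V600E) libraries, against 146 and 8718 for col11a1a. The other called cartilage genes, col2a1b, col9a1a, col9a3, col11a2, col27a1a and col27a1b, lay between -7.00 and -2.59. Without CCDC6-RET library 3 col2a1b was at -5.65 in place of -4.16, col9a1a at -8.42, col11a2 at -8.10 and col27a1a at -6.76. In all, 11 of the 12 tested cartilage genes were called lower and none higher (median -6.38), beside 38.2% and 33.9% of all tested genes. The filter shaped this count and median, since only the BRAF(V600E) libraries carried 10 of the genes past it, which favored lower values. Of the other 2 genes, col2a1b was called lower and col11a1b was not called.

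Libraries ranked alike across the cartilage genes. In the BRAF(V600E) group libraries 1 and 7 were the 2 highest for 11 of 12 genes, and in the CCDC6-RET group library 3 was the highest for 10 of 12. The same orders held for 25 and 26 of all 47 tested collagen genes, cartilage included. For fibrillar genes they held for 6 and 5 of 9, for basement membrane genes for 1 and 4 of 10 and for other collagens for 7 and 7 of 16. They were thus most frequent in cartilage genes but not confined to them. Chondrocyte markers other than collagens (15 tested of 17 listed, 13 called lower and none higher, median -6.08) summed to 61.2, 75.0, 29.6 and 115 CPM in CCDC6-RET libraries, against 1896, 670, 659, 878 and 1558 CPM in BRAF(V600E) libraries. Their sums too were highest in BRAF(V600E) libraries 1 and 7, and within the CCDC6-RET group in library 6, where chad and sox6 held most of the sum. Without this pair, chosen after its values were seen, the sums were 7.55, 39.0, 7.80 and 13 CPM in CCDC6-RET libraries, against 1767, 602, 579, 765 and 1378 CPM in BRAF(V600E) libraries. CCDC6-RET library 3 was then the highest of its group. Since the pair left out was the one that placed library 6 first, this order is a description and no separate match to the cartilage collagens. The chondrocyte factor sox9a had 0.604, 0.385, 0.244 and 0.0952 CPM against 28.3, 17.1, 13.5, 23.1 and 35.6 CPM. Of osteoblast markers 11 of 12 tested were called lower and phex higher (not under ribosomal scaling), with a median of -4.70, and the bone factor sp7 had 0.0755, 0.514, 0.244 and 0.381 CPM against 24.1, 8.04, 13.8, 9.90 and 22 CPM. Osteoblast markers summed to 1591 to 2196 CPM in the CCDC6-RET group, against 2526 to 4602 CPM in the BRAF(V600E) group. Without sparc and phex, which held most of the CCDC6-RET sum, the sums were 18.9 to 52.0 CPM against 432 to 1493 CPM. Fibroblast markers were lower in 15 of 15 tested genes (median -3.35), with sums of 266 to 771 CPM against 2679 to 4233 CPM. For pdgfra, a receptor of fibroblasts, the values were 5.44, 13.5, 5.60 and 5.43 CPM against 116, 72.6, 93.9, 101 and 93.6 CPM. Another fibroblast marker, tcf21, did not pass the filter and was the reverse, at 60.9, 8.73, 0.162 and 74.9 CPM against 0.0731 to 0.538 CPM. Over all tested genes 38.2% were called lower and 33.9% higher, against 86.7% of chondrocyte, 91.7% of osteoblast and 100% of fibroblast markers called lower. Some markers, sox9a and sp7 among them, passed the filter on low counts through the BRAF(V600E) libraries alone. This favored lower calls and medians in their lists. The part of these cell types in the collagen differences was not tested.

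Among the genes with a collagen symbol, basement membrane collagens held the only rises. Of further rows paired with human collagen genes, described at the end, 2 were also called higher and 9 lower. col18a1 (ENSDARG00000036558, chromosome 9, 42019826 to 42177718), a heparan sulfate proteoglycan whose end fragment is endostatin, had 1270, 939, 1013 and 760 CPM in CCDC6-RET libraries. BRAF(V600E) libraries had 127, 146, 127, 129 and 106 CPM of it. The lowest CCDC6-RET library was above the highest BRAF(V600E) library, and the means were 996 ± 211 and 127 ± 14.3 CPM (SD, n = 4 and 5), a ratio of 7.84. The log2 fold change was 2.97 ± 0.17 (edgeR adjusted p = 1.34e-06), with values of 2.41 to 3.10 over all alternatives. col4a1 (ENSDARG00000055009, chromosome 9, 8652642 to 8691828), a chain of the network found in all basement membranes, had 323, 418, 140 and 649 CPM against 114, 151, 87.4, 114 and 160 CPM. CCDC6-RET library 5 lay within the BRAF(V600E) range, and the other CCDC6-RET libraries lay above it. Its log2 fold change was 1.61 ± 0.38 (edgeR adjusted p = 0.00339) and 0.98 under ribosomal scaling (edgeR adjusted p = 0.0300). col4a1 and col18a1 overlapped no other gene of the table.

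The partner of col4a1 did not follow it. In mammals col4a1 and col4a2 encode chains of the same trimer and lie side by side. In the zebrafish table they were neighbours on chromosome 9 with 60081 bases between them. col4a2 (chromosome 9, 8751910 to 8904769) had 45.8, 9.89, 13.2 and 50.7 CPM in CCDC6-RET libraries, against 58.6, 80.7, 52.5, 62.8 and 79.3 CPM in BRAF(V600E) libraries. The groups did not overlap, and their nearest values were 50.7 CPM in CCDC6-RET library 6 and 52.5 CPM in BRAF(V600E) library 3. The log2 fold change was -1.16 ± 0.47 (edgeR adjusted p = 0.0469). The call ended without CCDC6-RET library 3 or 5, without any 1 of the BRAF(V600E) libraries and without the filter on low counts, at values of -1.24 to -0.86 (edgeR adjusted p = 0.0551 to 0.0995).

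The other type IV chains were lower. The linked chains col4a5 (chromosome 7, 50828152 to 50919360) and col4a6, which in mammals join in membranes of skin and smooth muscle, are 731 bases apart. col4a5 had 18, 31.9, 5.44 and 20.1 CPM against 172, 186, 124, 143 and 144 CPM, and was at -3.04 ± 0.43 on the log2 scale (edgeR adjusted p = 0.000158). col4a6 was at -1.93 ± 0.54, with 3.01 to 29.9 CPM against 39.3 to 63.6 CPM, and at -2.70 without CCDC6-RET library 3. The chains col4a3 (chromosome 15, 36196895 to 36254825) and col4a4 (chromosome 15, 36093919 to 36197432), known in mammals from the kidney filter, overlap by 538 bases. col4a3 had 0, 4.37, 0.0812 and 0.0952 CPM against 65.6, 85.6, 33.2, 92.5 and 87.7 CPM. col4a4 had 0, 1.80, 0 and 0 CPM against 40.7, 54.5, 14.3, 49.2 and 49.9 CPM. For this pair the CCDC6-RET counts again lay almost wholly in library 3, at 34 of 36 and 14 of 14. Log2 fold changes were -6.23 ± 1.1 and -6.84 ± 1.05 (edgeR adjusted p = 0.000650 and 0.000272), and -10.11 for col4a3 without library 3. Without that library no col4a4 count was left in the CCDC6-RET group. The anchoring fibril gene col7a1 (chromosome 6, 40186699 to 40314609) had 4.38, 3.60, 0.325 and 15.3 CPM against 77.7, 87.5, 46.8, 64.1 and 48.0 CPM. It was at -3.46 ± 0.76 (edgeR adjusted p = 0.00250), and at -4.53 without CCDC6-RET library 6. The remaining genes of the class were col15a1b at -1.70 ± 0.57, whose groups overlapped and whose call ended without CCDC6-RET library 5 or BRAF(V600E) library 1 (edgeR adjusted p up to 0.0545), and col7a1l at -1.81 ± 0.38. The table pairs col7a1l with human COL14A1, and the gene overlaps 3 others, so its class rests on its symbol alone. Of the 10 basement membrane genes 2 were called higher and 8 lower (median -1.87), beside 33.9% and 38.2% of all tested genes. Of the 7 above the filter on low counts in both groups 2 were higher and 5 lower. Only the BRAF(V600E) libraries carried col4a3, col4a4 and col7a1 past the filter, which favored lower values.

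Among the other collagens, type VI chains, which form beaded filaments around cells, were lower for col6a1, col6a2 and col6a4a and not called for col6a3. col6a1 (chromosome 11, 33733724 to 33802916) had 22, 55.1, 24.6 and 40.1 CPM in CCDC6-RET libraries, against 674, 379, 317, 358 and 468 CPM in BRAF(V600E) libraries. col6a2 (chromosome 11, 33658556 to 33697516) had 17.4, 81.2, 17.2 and 34.0 CPM against 506, 292, 277, 258 and 384 CPM. The groups were apart for each, at -3.63 ± 0.36 and -3.20 ± 0.51 (edgeR adjusted p = 1.89e-05 and 0.000336), and col6a2 was at -3.90 without CCDC6-RET library 3. The main col6a3 row (ENSDARG00000077139, chromosome 9, 24103448 to 24183818) had 463, 145, 31.4 and 565 CPM against 861, 361, 469, 404 and 572 CPM. CCDC6-RET libraries 2 and 6 lay inside the BRAF(V600E) range and libraries 3 and 5 below it, and the log2 fold change was -0.82 ± 0.67 (edgeR adjusted p = 0.289). A further col6a3 row lies within this gene, with 43 counts over CCDC6-RET and 210 over BRAF(V600E) libraries, and reads of the pair cannot be assigned with certainty. The further row did not overlap between groups and was not called, at -1.87 ± 0.87, but was called lower under ribosomal scaling (edgeR adjusted p = 0.0405). The type VI gene col6a4a was at -4.20 ± 0.36 (edgeR adjusted p = 9.41e-06), with 3.41 to 10.5 CPM against 74.1 to 140 CPM.

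The hemidesmosome collagen of skin keratinocytes, type XVII, was lower at each of its genes. col17a1a (chromosome 1, 48923915 to 48961434) had 4, 1.28, 1.38 and 2 CPM against 328, 367, 245, 235 and 218 CPM. col17a1b (chromosome 13, 24619813 to 24649250) had 7.47, 1.93, 0.487 and 2.48 CPM against 225, 494, 296, 327 and 198 CPM. The groups were far apart, at -6.97 ± 0.41 and -6.61 ± 0.73 (edgeR adjusted p = 1.74e-06 and 3.67e-05), and col17a1b was at -7.56 without CCDC6-RET library 2. Only the BRAF(V600E) libraries carried col17a1b past the filter on low counts, which favored a lower value, while col17a1a passed in both groups. Skin epithelial markers were called lower in 11 of 14 tested genes (78.6%, beside 38.2% of all tested genes). Some of them passed the filter on low counts through the BRAF(V600E) libraries alone, which favored lower values. In this list tp63, a factor of basal skin cells, had 9.36, 4.37, 5.85 and 4.76 CPM against 151, 279, 178, 207 and 152 CPM. The epithelial adhesion genes cdh1 and dsc2l of that list were called higher, at 0.93 and 0.96, though not under ribosomal scaling, and epcam was not called. Skin markers summed to 1645 to 4261 CPM in the CCDC6-RET group, against 13542 to 34831 CPM in the BRAF(V600E) group, and their part in the type XVII difference was not tested. BRAF(V600E) library 2 was the highest of its group for col17a1a, col17a1b and the summed skin markers, and for 7 of the 10 basement membrane collagens.

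A short-chain collagen of the corneal membrane in mammals, col8a2 (chromosome 19, 35909162 to 36009087), had 0.604, 0.642, 0.244 and 0 CPM against 82.1, 51.4, 46.6, 63.6 and 77.3 CPM, with a fitted log2 change of -7.42 ± 0.53 (edgeR adjusted p = 3.68e-06). It passed the filter on low counts through the BRAF(V600E) libraries alone, which favored a lower value. The type XII gene col12a1a (chromosome 17, 49685590 to 49879081), which coats type I fibers, had 203, 149, 117 and 222 CPM against 210, 103, 115, 123 and 223 CPM. These ranges almost coincided, and the log2 fold change was 0.16 ± 0.29 (edgeR adjusted p = 0.641), with -0.43 under ribosomal scaling. Its paralog col12a1b was lower at -2.94 ± 0.88, with 0.569 to 41.9 CPM against 84.3 to 171 CPM, and at -4.04 without CCDC6-RET library 3. The tested col19a1 row had 17 CPM in CCDC6-RET library 5 and 0.128 to 1.74 CPM in the other CCDC6-RET libraries, against 2.27 to 6.52 CPM in BRAF(V600E) libraries. It was not called, at 0.11 ± 1.06, and it was called lower without CCDC6-RET library 5, at -2.56 (edgeR adjusted p = 0.0158). In this class 12 of 16 tested genes were called lower and none higher (median -3.43), beside 38.2% and 33.9% of all tested genes. The lower genes included the type XIV and XXVIII genes at -5.53 to -2.20. Of these, col14a1a was at -4.36, and at -5.13 without CCDC6-RET library 3. The col14a1b gene lies inside gpd1c and overlaps dnajc8, and its reads cannot be told with certainty from theirs. Over CCDC6-RET libraries these had 3540 and 5296 counts, against 109 for col14a1b. Over BRAF(V600E) libraries they had 4347 and 2094, against 1409. Of the 7 genes of the class above the filter in both groups 5 were lower. Only the BRAF(V600E) libraries carried col12a1b, col14a1a, col28a2a and the further col6a3 row past the filter, which favored lower values. The call of col28a2a, at -2.20 ± 0.86, ended without any 1 of 6 libraries (CCDC6-RET 3 or 6, BRAF(V600E) 1, 2, 3 or 6), with edgeR adjusted p up to 0.0919, and the value was -3.61 without CCDC6-RET library 2.

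The makeup of collagen RNA differed accordingly. Collagen genes took 0.306%, 0.278%, 0.183% and 0.308% of all counts in CCDC6-RET libraries, against 1.81%, 1.13%, 1.03%, 1.02% and 1.52% in BRAF(V600E) libraries. The means were 0.269 ± 0.0589% and 1.3 ± 0.348% (SD, n = 4 and 5), with no overlap, and p = 0.0159 in a two-sided exact permutation test, the smallest p that 4 against 5 libraries allow. Shares of collagen counts are not adjusted for gene length, since gene lengths were not used, so they compare libraries and not genes. They also leave out rows paired with human collagen genes under other symbols, such as prp (COL22A1) with 12242 counts over CCDC6-RET libraries. Basement membrane genes held 53.8%, 47.0%, 61.7% and 44.2% of collagen counts in CCDC6-RET libraries and 4.49%, 8.15%, 5.80%, 7.76% and 5.76% in BRAF(V600E) libraries. Fibrillar genes held 17.6%, 32.2%, 9.997% and 26.9% against 56.2%, 56.8%, 59.0%, 53.4% and 56.0%. Neither of these shares overlapped between groups, and each had an adjusted p of 0.0317 over the 4 classes in the exact permutation test. The cartilage share was 7.17 ± 6.57% against 16.9 ± 2.87% and did not pass (exact permutation test, adjusted p = 0.0635), with CCDC6-RET library 5 at 17% and the others of its group at 2.84% to 4.48%. Most cartilage counts of the CCDC6-RET group were of col11a1b, which was not called, at 7141 counts, with col2a1b next at 304. The share of the other class was 19.5 ± 6.86% against 20.5 ± 1.35% (exact permutation test, adjusted p = 0.762). As a description, col18a1 alone made up 36.4 ± 13.2% of collagen counts in CCDC6-RET and 1.09 ± 0.305% in BRAF(V600E) libraries. The type I genes made up 11.1 ± 8.84% against 48.9 ± 1.94%.

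**Figure D3:**
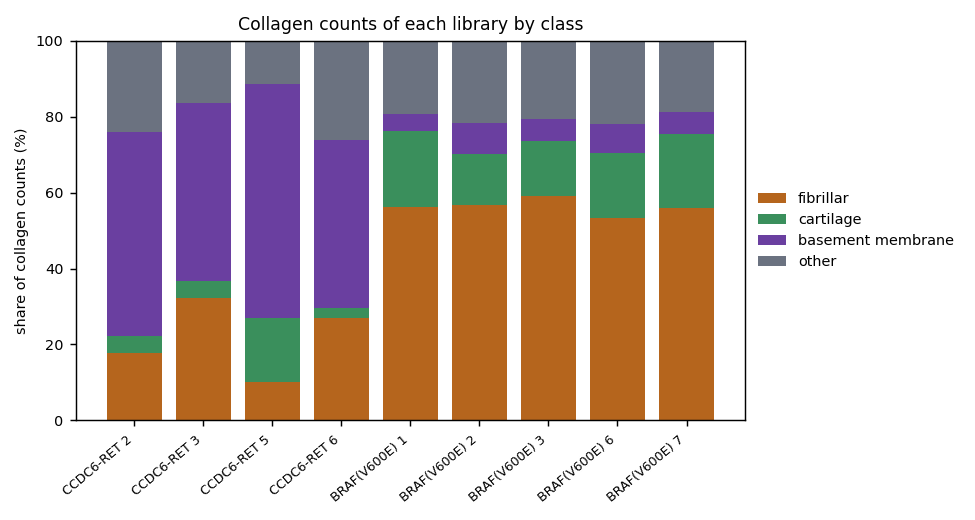
Share of each library's collagen counts (vertical axis, percent) by class, with 4 CCDC6-RET libraries left and 5 BRAF(V600E) libraries right. Basement membrane genes hold 44.2% to 61.7% in CCDC6-RET libraries, against 4.49% to 8.15% in BRAF(V600E) libraries, and fibrillar genes hold 9.997% to 32.2% and 53.4% to 59.0%.

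These shares depend on where a type is placed. With types VII, XV and XVIII counted as other collagens and types II, XI and XXVII as fibrillar, the basement membrane class holds type IV alone. Its share was then 8.39% to 21.1% for CCDC6-RET, against 2.89% to 5.63% for BRAF(V600E), a difference of 10.3 percentage points in place of 45.3. The cartilage class, then without col11a1b, held 0.0415% to 0.518% for CCDC6-RET, against 8.49% to 10.4% for BRAF(V600E).

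Ratios between chains within a library do not depend on library scaling, and they tested whether partner chains or paralogs changed unequally. Of 14 ratios listed 13 had enough counts, and 8 of these differed between the groups, each with p = 0.0159 and an adjusted p of 0.0258 over the 13 in the exact permutation test. In 3 of the 8, paralog pairs of types II, XI and XII, the filter on low counts favored the direction seen. These 3 are kept as description and not as test results, and the adjusted p of the rest was computed with them included. The log2 ratio of col4a1 to col4a2 was 2.82, 5.39, 3.40 and 3.68 in CCDC6-RET libraries, against 0.955, 0.902, 0.736, 0.865 and 1.01 in BRAF(V600E) libraries. Every CCDC6-RET library was above every BRAF(V600E) library. The ratio of col4a1 and col4a2 together to col4a5 and col4a6 was 3.81 ± 0.81 against -0.10 ± 0.25. For col4a5 to col4a6 it was 0.73 ± 0.57 against 1.63 ± 0.12, so this pair too changed unequally. Type V (col5a1, col5a2a and col5a2b, without col5a3a and col5a3b) to type I counts had log2 ratios of 0.96, -1.57, 0.21 and 0.70 in CCDC6-RET libraries. BRAF(V600E) libraries had -3.05, -2.92, -2.78, -2.75 and -2.98, a difference of 2.97. Type IV (col4a1 and col4a2) to type I had 0.50 ± 0.86 against -4.96 ± 0.45, a difference of 5.46.

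In paralog pairs of 3 types, col11a1a, col2a1a and col12a1b passed the filter on low counts through the BRAF(V600E) libraries alone, while their paralogs passed in both groups. These 3 ratios are given as a description, and reads of col11a1a cannot be told with certainty from the overlapping CR933730.1. The log2 ratio of col11a1a to col11a1b was -5.58 ± 2.53 in CCDC6-RET and 0.20 ± 0.41 in BRAF(V600E) libraries. That of col2a1a to col2a1b was -3.67 ± 1.61 against 0.68 ± 0.58, a difference of -4.35 that was -3.00 with 5 in place of 0.5 counts added, where reads of col2a1b cannot be told with certainty from the overlapping elmo2. That of col12a1a to col12a1b was 4.62 ± 2.44 against 0.34 ± 0.15. The pairs of types I, VI and XVII were not called to differ. The log2 ratio of col1a1a to col1a1b differed by 0.05, that of the type I alpha1 chains to col1a2 by 0.22, that of col6a1 to col6a2 by -0.22 and that of col17a1a to col17a1b by 0.02 (exact permutation tests, adjusted p = 0.0917 to 0.984). For col14a1a to col14a1b, which overlaps gpd1c and dnajc8, the difference was -1.27 (exact permutation test, adjusted p = 0.165), and -0.48 with 5 counts added.

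**Figure D4:**
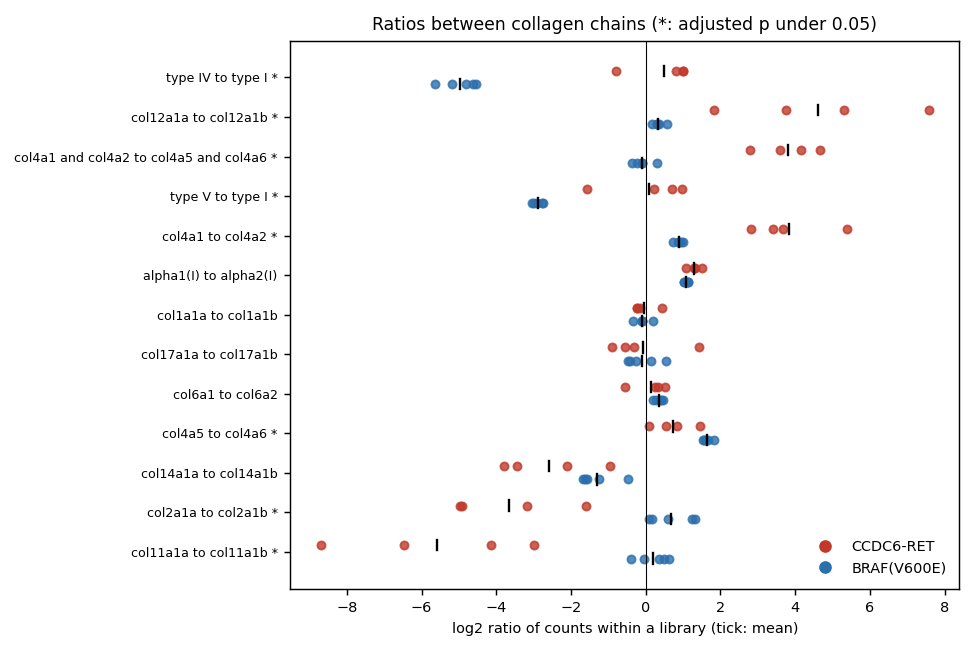
Log2 ratio of counts within each library (horizontal axis) for 13 pairs of chains or groups of chains, with CCDC6-RET libraries (red) above BRAF(V600E) libraries (blue), ticks for means and stars for adjusted p under 0.05. The col4a1 to col4a2 ratio lies at 2.82 to 5.39 in CCDC6-RET libraries, against 0.736 to 1.01 in BRAF(V600E) libraries, and the ratios among type I chains overlap between the groups. The starred paralog ratios of types II, XI and XII are descriptions, since the filter on low counts favored their direction.

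Genes that make and fold collagen were called higher more often than lower, though not when libraries were scaled on ribosomal protein genes. Of 25 tested genes of collagen synthesis and folding 12 (48.0%) were called higher and 6 (24%) lower, with a median of 0.58, beside 33.9% higher and 38.2% lower over all tested genes. serpinh1a, which encodes the collagen chaperone HSP47, had 863, 670, 1247 and 849 CPM in CCDC6-RET libraries, against 146, 79.2, 83.0, 68.9 and 109 CPM in BRAF(V600E) libraries. ppib, a prolyl isomerase of the endoplasmic reticulum, had 1369, 1228, 1607 and 1354 CPM against 375, 274, 281, 283 and 308 CPM. Neither gene overlapped between groups, and their log2 fold changes were 3.22 ± 0.27 and 2.19 ± 0.14 (edgeR adjusted p = 7.30e-06 and 2.02e-06). Members that fell were crtap, a cofactor of prolyl 3-hydroxylation, at -2.28 ± 0.24, and sec24d, a coat protein of vesicles that carry procollagen, at -1.46 ± 0.21. The paralog serpinh1b was not called, at 0.33 ± 0.59. The 12 higher genes include p4ha1b, at 3.71 ± 1.32, with 742 CPM in CCDC6-RET library 6 and 3.41 to 63.3 CPM in the others of its group. Without library 6 p4ha1b was at 0.69 and not called (edgeR adjusted p = 0.470). Its call also ended without BRAF(V600E) library 1, 2, 3 or 6. The higher gene plod1a was at 2.12, and at 0.83 without CCDC6-RET library 6. Under ribosomal scaling 6 genes of the list (24%) were higher and 7 (28%) lower, beside 16.1% and 49.0% of all tested genes, with serpinh1a at 2.65 and ppib at 1.61. ppib serves secretory proteins in general, and serpinh1a is the more specific to collagen.

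Genes that act on collagen outside the cell were called lower more often than higher, beside 38.2% lower and 33.9% higher over all tested genes. Of 10 tested genes of procollagen processing 5 were called lower, 1, the propeptide protease gene adamts3, higher, and 4 in neither direction. The enhancer of propeptide cleavage pcolceb had 0, 1.16, 0 and 0.0952 CPM against 123, 114, 69.7, 86.1 and 140 CPM, and was at -8.72 ± 0.82, with 1 CCDC6-RET count left outside library 3. Others that fell were the propeptide protease gene adamts2 at -3.95 ± 0.48, pcolce2a at -5.10 ± 0.65 (-5.98 without CCDC6-RET library 5) and mep1a.1 at -4.59 ± 0.65 (-5.28 without CCDC6-RET library 3). Of 7 tested lysyl oxidase genes, which crosslink fibers, 4 were called lower, loxl3a at -6.59 ± 0.46, loxl4 at -3.59 ± 0.49, loxl1 at -4.36 ± 0.81 (-6.16 without CCDC6-RET library 3) and loxl3b at -1.96 ± 0.36. None of the lysyl oxidase genes was called higher. Of 12 tested collagen receptor genes 9 were called lower and none higher. They included the discoidin domain receptors ddr1 at -5.34 ± 0.63 (-6.14 without CCDC6-RET library 3) and ddr2a at -3.37 ± 0.37, and the integrin genes itga2.2 at -5.46 ± 0.30 and itga2.1 at -5.11 ± 0.66. Several of the lower genes passed the filter on low counts through the BRAF(V600E) libraries alone, which favored lower values. Among them were pcolceb, pcolce2a, mep1a.1, adamts2, loxl1, loxl3a, itga2.1 and itga2.2.

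**Figure D5:**
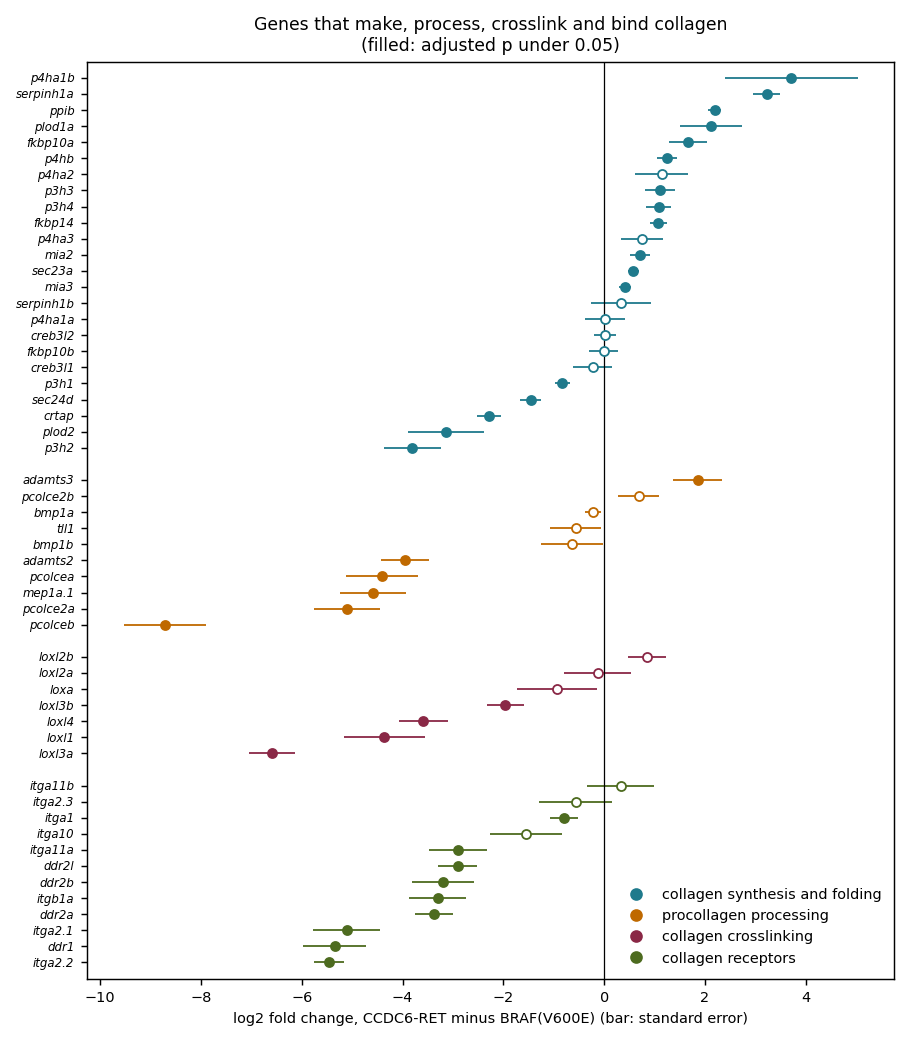
Log2 fold change (horizontal axis, CCDC6-RET over BRAF(V600E), bars for the standard error, filled points for genes called) of tested genes that fold, process, crosslink and bind collagen. colgalt2b, called lower with no count in CCDC6-RET libraries, is left out; 12 of 25 folding genes (6 under ribosomal scaling) lie right of 0 with a call, against 1 of 10 processing, 0 of 7 crosslinking and 0 of 12 receptor genes.

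Endothelial and mural cells also make col4a1 and col18a1, and most markers in a joint list of both were lower. Of 16 tested 11 (68.8%) were called lower and none higher (median -1.45), beside 38.2% lower and 33.9% higher over all tested genes. The sums of these markers were 179.6 to 626 CPM in the CCDC6-RET group, against 983 to 1333 CPM in the BRAF(V600E) group. The endothelial receptor gene kdrl had 32.2, 104, 48.1 and 130 CPM against 46.6, 42.9, 38.4, 44.7 and 50.4 CPM and was not called, at 0.82 ± 0.36 (edgeR adjusted p = 0.0625). Also not called were the endothelial genes cdh5 at 0.03, egfl7 at -0.15 and tek at -1.13. The mural gene kcnj8 was not called either, at -0.58 (-1.46 without CCDC6-RET library 6). The genes called lower were both endothelial, such as fli1a at -1.53, and mural, such as acta2 at -2.60. Thyroid follicular markers were called higher in 10 (66.7%) and lower in 2 (13.3%) of 15 tested genes (median 3.59), with sums of 14526 to 32063 CPM against 2547 to 21569 CPM. Most of the sum in every library was tg, which was not called, at 0.96 (edgeR adjusted p = 0.141). The sums therefore say little about the other thyroid markers. Skeletal muscle markers were lower in 23 of 23 tested genes (median -7.83), with sums of 25.9 to 85.5 CPM in CCDC6-RET libraries, against 6406 to 22998 CPM in BRAF(V600E) libraries. Schwann cell and neural crest markers were called lower in 5 of 6 tested genes (83.3%), with sox10 at 0 to 0.385 CPM against 2.95 to 8.19 CPM, and egr2b was called higher at 1.65. Only the BRAF(V600E) libraries carried sox10 and several muscle markers past the filter on low counts, which favored lower values. The part of these cell types in the basement membrane collagen differences was not tested.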

How the data were processed

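RNA of 4 CCDC6-RET and 5 BRAF(V600E) zebrafish thyroid tumor libraries was sequenced by the authors, and 1 deposited table of 27158 genes was used. The deposited values are raw counts, made by the authors from reads that STAR aligned to GRCz10 (the submitters' processing notes name version 2.3, the methods of the study another). How reads were counted, and whether by strand, is not given in the sources used here. Reads may therefore be shared where genes overlap or lie antisense. Columns of the authors that were not used are counts divided by size factors (signal), the authors' DESeq2 log2 fold changes, the authors' test statistic (a score) and the authors' p-values.

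The collagen genes, classes and gene lists were chosen with earlier results of these data known. Types I, III, V and XXIV were classed as fibrillar, types II, IX, X, XI and XXVII as cartilage, types IV, VII, XV and XVIII as basement membrane, and the rest as other. Lists (202 entries in 12 lists) were matched by symbol in the table (177) or by the current symbol (5), and 20 were not matched.

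Counts were fitted with edgeR 4.0.16 in R 4.3.3: filterByExpr (minimum count 10), TMM, robust quasi-likelihood F test, Benjamini-Hochberg adjustment over all tested genes. The standard error is the size of the log2 fold change divided by the root of F. Shares and chain log2 ratios (0.5 added to each sum) were compared with two-sided exact permutation tests over libraries. Replicate numbers 2, 3 and 6 occur in both groups, and their use as a block was an alternative. Other alternatives were size factors of DESeq2 1.42.0, ribosomal protein gene and upper-quartile scaling, the DESeq2 test, limma 3.58.1 voom, other filters and leaving out each library. The fit was tested on simulated counts. Values in every library are given for the 4 members of each class with the highest mean level and for up to 3 called members with the largest change in each direction, among those with at least 1 CPM in the higher group. Up to 4 called members with the smallest p are named of each list, and defining markers of a cell type (tg, sox9a, sp7, pdgfra, kdrl, tp63, sox10) may be named whatever their p. The genes col5a1, col11a1a, adamts3, phex, sparc, chad, sox6, cdh1, dsc2l, epcam, egr2b, serpinh1b and tcf21 were chosen after their values were seen. So were cdh5, egfl7, tek, kcnj8, fli1a, acta2, p4ha1b, plod1a and col6a4a. Depth ran from 8662544 to 13596477 counts per library.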

Additional observations from a re-analysis of the deposited data

Results flagged for a closer look

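A library was looked at again where it lay far from the rest of its group by Dixon's criterion. Chance meets it in about 1 in 20 groups of normally distributed values. That rate does not hold for genes near 0 counts, since any count meets the criterion where the other libraries have none. The number flagged is therefore not compared with that rate. Of 88 groups of values 10 met it, all in the CCDC6-RET group and 8 of them in library 3. Library 3 stood above the other CCDC6-RET libraries for col2a1a (8.35 CPM, the others 0.0755 to 0.0952), col10a1a (10.4 CPM, the others 0.244 to 0.755), col9a2 (1.28 CPM, the others 0), col4a3 (4.37 CPM, the others 0 to 0.0952), col4a4 (1.80 CPM, the others 0) and col5a2b (1.67 CPM, the others 0 to 0.0812). In each of these genes library 3 was still below every BRAF(V600E) library. Library 3 also had the highest log2 ratio of col1a1a to col1a1b, 0.437 (the others -0.240 to -0.142), and the lowest log2 ratio of type IV to type I, -0.792 (the others 0.799 to 0.999). CCDC6-RET library 2 was the only library of its group with counts of col24a1, at 0.302 CPM. In CCDC6-RET library 5 cartilage genes held 17% of collagen counts (the others 2.84% to 4.48%), beside its col11a1b level of 321 CPM.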

How the results depend on the processing

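Over all alternatives 2 to 3 collagen genes were called higher and 36 to 41 lower, and col18a1 and col4a1 were called higher in each. Among the 26 collagen genes chosen by the rule, no fold change of a called gene changed sign, and the calls of col4a2 and col12a1a changed. Libraries with the shared replicate numbers 2, 3 and 6 showed no common deviation (r of same-numbered deviations 0.028, 0.00911 and -0.0392). This cannot exclude a common batch, and the labels do not say what the numbers stand for. With these numbers as a replicate block, 3 collagen genes were called higher and 38 lower, with 1 other collagen in place of 0, col12a1a at 0.73 (edgeR adjusted p = 0.0288). The same 6 libraries without the block gave 3 higher and 37 lower, again with 1 other collagen, col12a1a at 0.75 (edgeR adjusted p = 0.0104). col4a2 was then at -1.14 and -0.88 (edgeR adjusted p = 0.0844 and 0.197).

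Ribosomal scaling gave 6 higher genes of synthesis and folding in place of 12, 0 higher osteoblast markers in place of 1 and 0 higher skin markers in place of 2. Leaving out single libraries gave 1 to 2 higher processing genes (1 with all), 0 to 1 higher crosslinking genes, fibroblast and endothelial markers (0 with all), 1 to 3 higher skin markers (2 with all) and 1 to 2 lower thyroid markers (2 with all). With classes by structure the cartilage share differed by -9.44 percentage points (exact permutation test, adjusted p = 0.0159), and the other class, which then held col18a1, by 34.0 in place of -1.02.

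With 1 library left out the exact test cannot go below 0.0357 (3 against 5) or 0.0286 (4 against 4) before adjustment, so a lost call there says nothing about stability. Differences then ran from 42.0 to 47.8 percentage points for the basement membrane share, -38.1 to -30.7 for fibrillar and -12.9 to -8.23 for cartilage, which passed without CCDC6-RET library 5 (exact permutation test, adjusted p = 0.0476). Differences of log2 ratios ran from 2.68 to 3.52 for type V to type I, 5.29 to 5.89 for type IV to type I, 2.41 to 3.26 for col4a1 to col4a2, -1.14 to -0.69 for col4a5 to col4a6, 3.62 to 4.25 for col4a1 and col4a2 to col4a5 and col4a6, -5.04 to -3.91 for col2a1a to col2a1b (-3.00 with 5 counts added to each sum), -6.65 to -4.75 for col11a1a to col11a1b and 3.30 to 5.22 for col12a1a to col12a1b. The causes of these changes were not tested. Fold changes of genes with under 20 CCDC6-RET counts, such as col9a2, col4a4 and col24a1, are imprecise at this depth.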

Other observations

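Further rows of the table are paired with human collagen genes but carry another kind of symbol or a collagen symbol in capitals. They were looked at after their values were seen. Of 12 such rows 2 were called higher in CCDC6-RET tumors, 9 lower, and 1 was not tested. The row prp, paired with COL22A1, a collagen of tissue junctions in mammals, had 356, 72.4, 228 and 397 CPM in CCDC6-RET libraries 2, 3, 5 and 6, against 28.5, 16.9, 20.6, 18.1 and 39.4 CPM in BRAF(V600E) libraries 1, 2, 3, 6 and 7. All CCDC6-RET libraries were above the BRAF(V600E) libraries, and the log2 fold change was 3.41 ± 0.47 (edgeR adjusted p = 0.000143). The row si:dkeyp-44a8.4, paired with the transmembrane collagen gene COL23A1, had 55.4 ± 28 CPM against 18.1 ± 1.92 CPM (SD, n = 4 and 5), which gave 1.62 ± 0.31 on the log2 scale (edgeR adjusted p = 0.00112). The row COL16A1 had 4.99 ± 3.24 CPM against 186 ± 43.7 CPM, or -5.24 ± 0.44.

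A further row paired with human COL18A1 did not share the rise of col18a1. It lies on chromosome 6 (18619145 to 18668330, GRCz10) and had 1.06, 0.514, 0.406 and 1.14 CPM in CCDC6-RET libraries, against 19, 21, 22.9, 15.7 and 12.6 CPM in BRAF(V600E) libraries. Its log2 fold change was -4.51 ± 0.36, and the difference between the COL18A1 rows was not tested.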
